A study of Mus musculus with 155 samples.

Results

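The genes of the cytosolic ribosome's own proteins were described across single mouse brain cells. Members were taken by gene symbol, as Rpl or Rps followed by a number and at most 1 of the letters a, b, l or x, together with the stalk genes Rplp0, Rplp1 and Rplp2 and the gene Rpsa. This rule found 48 of the 3422 genes in the deposited table, 21 of the small and 27 of the large subunit, and it used no measured value. Single cells were read with SMART-Seq2, which copies whole poly(A)-tailed messages. The cells were sorted from the subventricular zone, where new neurons are made in the adult brain, and from the corpus callosum, a white matter tract. All mice were 8 to 10 weeks old. OligNBL (40 cells) were cells positive for both reporters, from a cross of CB6-Tg(Gad1-EGFP)G42Zjh/J and Olig2-tdTomato TH39Gsat/Mmcd mice with a demyelinating lesion. NBL (27 cells) were Gad67-GFP+ cells of CB6-Tg(Gad1-EGFP)G42Zjh/J mice with the lesion. OL (22 cells) were Olig2-Tomato+ cells of Olig2-tdTomato TH39Gsat/Mmcd mice with the lesion. O (29 cells) were Olig2-Tomato+ cells of the same reporter strain without injection. NB (37 cells) were Gad67-GFP+ cells of the GFP strain without injection. Lesioned mice had received LPC, a lipid that strips myelin, 6 days earlier. Every cell carried at least 1 reporter transgene, driven by Gad1 or Olig2 sequences, and all were sorted as live.

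The labels give 5 mice per condition and tie no cell to a mouse. Each population therefore counts as 1 sample, populations are compared without a test, and the differences below have no replicate check. Strain differs with the sort gate in every comparison between gates, so gate and strain cannot be told apart. The labels give a lesion for OligNBL, whereas the titles of these cells carry a mark for control; the lesion label is used here.

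A cytosolic ribosome is built from ribosomal RNA and one copy of most of its proteins, so cells usually make the messenger RNAs of these proteins in balanced amounts. Many of these messages begin with a run of pyrimidines at their 5′ end, through which growth signalling by mTOR adjusts their translation. Neuroblasts and oligodendrocyte progenitors are immature cells that build up protein and membrane, while mature oligodendrocytes maintain myelin.

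The start regions below show runs of pyrimidines, where found, for members that led the comparisons. They hold 20 bases to each side of the RefSeq start in GRCm38.p6, 5′ to 3′ on the gene's strand. Capitals mark the longest run of at least 6 bases that starts with C and holds only C and T. Such a run can lie before the start, as in Rps25, or after it, as in Rpl12, so it need not begin the message.
Rpl12: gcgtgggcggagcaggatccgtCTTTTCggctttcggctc
Rps24: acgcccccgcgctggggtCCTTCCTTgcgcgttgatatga
Rpl13a: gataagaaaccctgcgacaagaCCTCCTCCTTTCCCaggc
Rpl35: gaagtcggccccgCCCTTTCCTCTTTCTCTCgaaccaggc
Rps10: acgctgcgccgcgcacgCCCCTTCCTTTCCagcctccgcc
Rpl18: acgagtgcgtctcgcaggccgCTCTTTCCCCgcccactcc
Rps25: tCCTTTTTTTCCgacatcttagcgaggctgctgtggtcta
Rps19: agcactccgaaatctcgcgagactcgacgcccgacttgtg
Rpl37a: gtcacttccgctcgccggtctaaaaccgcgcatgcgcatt
By the mean over cells, Rpl12, Rps24, Rpl13a, Rpl35 and Rps19 were among the genes highest in OligNBL, Rps10 in NBL, Rpl18 in OL, Rpl37a in O and Rps25 in NB. By the median cell, Rps24 was higher in O and Rpl35 in NBL than in OligNBL. The windows of Rps19 and Rpl37a held no such run. The windows lie at chr2:32961692-32961731 (Rpl12, + strand), chr14:24490658-24490697 (Rps24, +), chr7:45128726-45128765 (Rpl13a, −), chr2:39005112-39005151 (Rpl35, −) and chr17:27635225-27635264 (Rps10, −). Those of the others lie at chr7:45718051-45718090 (Rpl18, +), chr9:44407694-44407733 (Rps25, +), chr7:24884572-24884611 (Rps19, +) and chr1:72711240-72711279 (Rpl37a, +). A RefSeq start region was matched for 33 of the 48 members. Such a run, anywhere in the window, was found in 19 of these 33 (57.6%). The share was 28.9% of 2497 matched genes of the expression table and 29.4% of 27025 genes of the promoter table. The letters CCGGAAG, which hold the core bound by ETS factors, were searched on both strands of the whole RefSeq start region. They were found in 14 of the 33 members (42.4%), against 19.9% of the matched genes of the expression table and 9.12% of the promoter table. Members with and without the run led in OligNBL and outside it, and a match describes letters, not a working site.

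Values in the table are normalized so that all cells have nearly the same distribution. Of the 20 highest values, 17 were equal in all cells, and totals differed by 0.101%, so sequencing depth is unknown. A level below is log2(value + 1) of a cell, a mean level is its mean over cells, and a difference is between mean levels. Levels are compared for the same gene only, since they are not divided by gene length. As ribosomal protein genes are used by every cell, a 0 in this table can be a missed message, and such a gene is written as listed at 0. Many ribosomal protein genes have near-identical processed copies in the mouse genome, so reads may have been split between copies, and no source used here says how the authors' counting treated them. Markers of mature oligodendrocytes were high in the gates positive for Tomato alone. They were low in OligNBL, whose cells were positive for Tomato too. Over 11 mature oligodendrocyte genes, the mean level in the median cell was 0.04 in OligNBL, 0.08 in NBL, 9.03 in OL, 6.62 in O and 0.15 in NB. Over 13 neuroblast genes it was 3.14 in OligNBL, 3.03 in NBL, 0.79 in OL, 0.72 in O and 2.62 in NB. Over 6 oligodendrocyte progenitor genes it was 1.90 in OligNBL, 0.45 in NBL, 0.72 in OL, 1.12 in O and 0 in NB. Pecam1, the single endothelial marker measured, had a median level between 5.52 in NB and 10.5 in O, and its part in the results was not tested. None of the listed markers of astrocytes, microglia, ependymal, mural and red blood cells was measured, so the presence of such cells could not be assessed.

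OligNBL cells listed the most ribosomal protein genes. The median OligNBL cell had 25 of the 48 members above 0, with cells between 6 and 33. The median was 16 in NBL (7 to 24), 11 in OL (6 to 20), 10 in O (3 to 25) and 13 in NB (3 to 25). At least 20 members were above 0 in 34 of 40 OligNBL cells, 5 of 27 NBL cells, 1 of 22 OL cells, 1 of 29 O cells and 8 of 37 NB cells. The cells of the populations overlapped, but most OligNBL cells lay above most others.

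**Figure D1:**
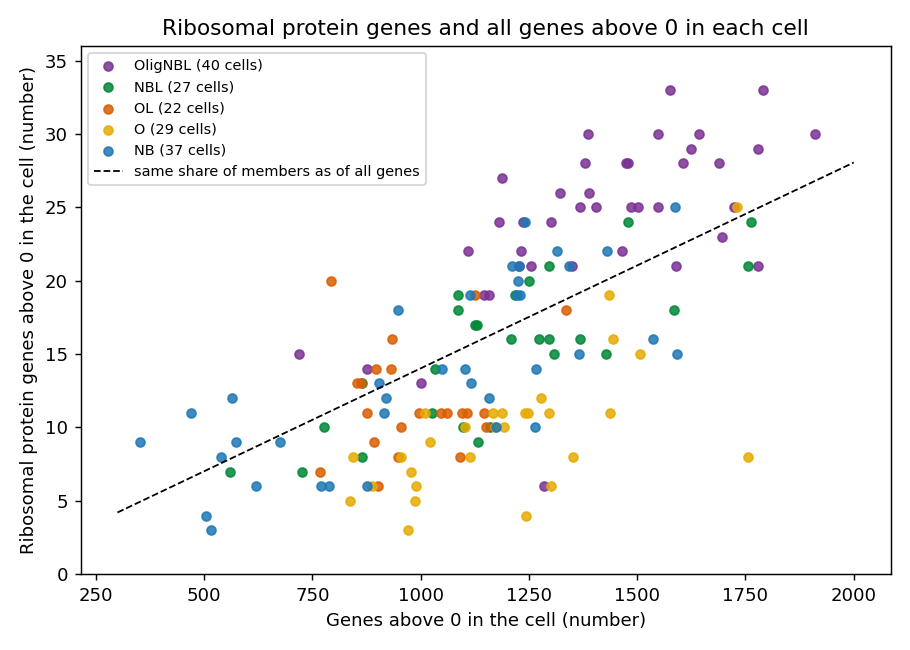
Each point is a cell, with its number of genes above 0 across and its number of ribosomal protein genes above 0 upward, coloured by population; the dashed line is where the share of members equals the share of all genes. OligNBL cells, with a median of 25 members, sit mostly above the line, and O cells, with a median of 10, mostly below it.

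The number of all genes above 0 also differed, with a median of 1397 in OligNBL, 1161 in NBL, 950.5 in OL, 1187 in O and 1114 in NB. As a share, the median OligNBL cell had 52.1% of the members and 40.8% of all genes above 0. The shares were 33.3% of members and 33.9% of all genes in NBL, 22.9% and 27.8% in OL, 20.8% and 34.7% in O, and 27.1% and 32.6% in NB. In O the members had a lower share than the table as a whole, and in OligNBL a higher one. Among cells with 1000 to 1400 genes above 0, the median was 23 members in 18 OligNBL cells, 16 in 17 NBL cells, 11 in 9 OL cells, 10 in 15 O cells and 19 in 17 NB cells. At like numbers of genes OligNBL still had the highest median, and the NB median was nearer to it than in all cells. Across cells of a population, members and genes above 0 correlated with a Pearson r of 0.64 in OligNBL (n = 40), 0.78 in NBL (n = 27), 0.16 in OL (n = 22), 0.65 in O (n = 29) and 0.75 in NB (n = 37). These cells share the normalization, and cells within a population are not independent.

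Of its 500 highest genes, the median OligNBL cell had 10 among the members, NBL 4, OL 7, O 3 and NB 7. The NB median is over 35 cells, since 2 NB cells had fewer than 500 genes above 0. The 500 highest genes are 14.6% of the table, which for 48 members comes to 7.01. The summed members made up 0.406% of the total in the median OligNBL cell, 0.0278% in NBL, 0.101% in OL, 0.0521% in O and 0.0165% in NB. A share of at least 1% was reached by 12 of 40 OligNBL cells, 5 of 27 NBL cells, 2 of 22 OL cells, 2 of 29 O cells and 3 of 37 NB cells. The highest cell of each population reached 19.6% in OligNBL, 2.34% in NBL, 5.61% in OL, 23.4% in O and 5.61% in NB. A different gene led each of these cells, Rpl3 in OligNBL, Rpl22 in NBL, Rps6 in OL, Rps24 in O and Rps27l in NB, and in the O cell Rps24 alone held 23.1% of the total.

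Gene by gene, the members did not share one order of populations. The mean level was highest in OligNBL for 24 members (26.8% of all genes had their highest mean there), in NB for 12 (19.5%), in OL for 6 (16.7%), in NBL for 3 (17.3%) and in O for 3 (19.7%). At least 50% of cells listed a member above 0 for 28 members in OligNBL, 10 in NBL, 8 in OL, 5 in O and 10 in NB. The share of all genes past 50% of cells was not computed. OligNBL cells also listed more genes of any kind (median 1397), so these counts do not set the members apart from other genes. No member was at 0 in every OligNBL cell. Rplp1 was above 0 in 0 of 27 NBL cells, so up to 11.1% of such cells could list it. In OL this held for Rpl13a, Rpl27a, Rpl29, Rpl39 and Rps12 (up to 13.6% of cells), in O for Rpl17, Rpl7a, Rps29 and Rpsa (up to 10.3%), and in NB for genes that include Rpl35a, Rpl39, Rpl7a and Rps7 (up to 8.11%). Many other genes were also at 0 throughout a population. Values varied between cells for 3298 of the 3422 genes in OligNBL, 3090 in NBL, 3033 in OL and 3256 in O. Of the 48 members, 48, 47, 43 and 44 varied there. For NB the number of all genes at 0 throughout was not computed. These limits are 3 divided by the number of cells. The exact 95% intervals reach higher, to 12.8% in NBL, 15.4% in OL, 11.9% in O and 9.49% in NB. The limits and the intervals below cover counting error only and treat cells as independent, which they are not.

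**Figure D2:**
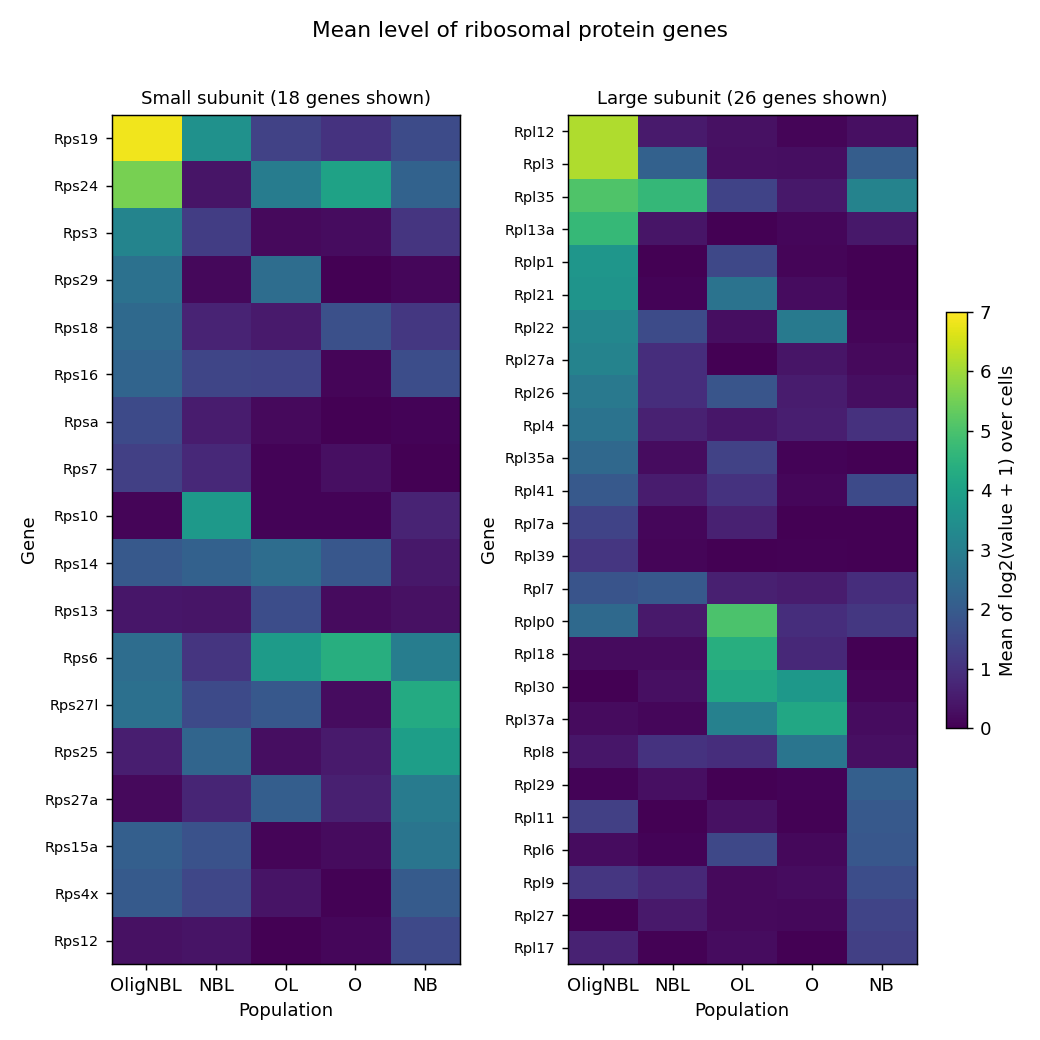
Colour gives the mean of log2(value + 1) over the cells of a population (columns) for the small subunit genes (left) and large subunit genes (right) reported by name, ordered by the population with the highest mean. Genes led by OligNBL, such as Rps19 and Rpl12, stand at the top of each panel, and blocks led by other populations follow below.

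Among proteins of the small subunit's head and body, Rps19, whose human gene is mutated in Diamond-Blackfan anaemia, was the most widely listed gene in OligNBL. It was above 0 in 40 of 40 OligNBL cells (interval 91.2 to 100%), against 17 of 27 NBL, 7 of 22 OL, 13 of 29 O and 17 of 37 NB cells. The lowest OligNBL cell had a value of 0.985, the median level was 5.20 and the highest 17.5. It was 1.32 in NBL (highest 15.7), 0 in OL (highest 10.8), 0 in O (highest 5.24) and 0 in NB (highest 8.88), so OligNBL cells were high but overlapped with all others.

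Rps24, another Diamond-Blackfan gene in humans, was listed in 35 of 40 OligNBL cells, 5 of 27 NBL, 16 of 22 OL, 20 of 29 O and 19 of 37 NB cells. Its median and highest levels were 1.82 and 18.5 in OligNBL, 0 and 4.65 in NBL, 1.85 and 15.1 in OL, 3.79 and 20.2 in O, and 1.56 and 8.57 in NB. NBL was the low population, and the others overlapped broadly.

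Rps10, at the beak of the small subunit and a target of ubiquitin in ribosome quality control, was listed in 5 of 40 OligNBL cells (12.5%, interval 4.19 to 26.8%) and in 19 of 27 NBL cells (70.4%, 49.8 to 86.2%). It was above 0 in 1 of 22 OL cells, 1 of 29 O cells and 11 of 37 NB cells. No OligNBL cell exceeded 1.59, whereas the median NBL cell was at 2.27 and the highest at 16.2. The highest cell was at 1.47 in OL, 1.62 in O and 12.5 in NB.

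Rps25, which some viral and cellular messages need for initiation at internal sites, was listed mostly in cells positive for Gad67-GFP alone. It was above 0 in 10 of 40 OligNBL cells, 18 of 27 NBL, 2 of 22 OL, 7 of 29 O and 27 of 37 NB cells. Its median level was 0 in OligNBL, 2.19 in NBL, 0 in OL and O, and 3.86 in NB. The highest cell was at 6.70 in OligNBL, 10.9 in NBL, 3.98 in OL, 3.58 in O and 13.1 in NB.

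Rps27a, made as a fusion with ubiquitin, was listed in 5 of 40 OligNBL, 8 of 27 NBL, 10 of 22 OL, 8 of 29 O and 26 of 37 NB cells, with a median level above 0 in NB only (3.22). Rps27l, a close relative of Rps27 that p53 induces, was listed in 25 of 40 OligNBL, 15 of 27 NBL, 10 of 22 OL, 3 of 29 O and 24 of 37 NB cells. Its median level was 0.49 in OligNBL, 1.15 in NBL, 0 in OL and O, and 2.06 in NB, and the highest cell was at 13.6 in OligNBL, 12.8 in NBL, 11.5 in OL, 3.73 in O and 18.1 in NB. O was the low population for Rps27l.

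Rps6, the substrate of S6 kinase, was spread over all populations. It was above 0 in 22 of 40 OligNBL, 9 of 27 NBL, 14 of 22 OL, 15 of 29 O and 20 of 37 NB cells, with median levels of 0.80 in OligNBL, 0 in NBL, 2.71 in OL, 0.99 in O and 1.59 in NB. Rps14, whose partial loss underlies a deletion syndrome of human blood, was listed in 26 of 40 OligNBL, 16 of 27 NBL, 11 of 22 OL, 15 of 29 O and 2 of 37 NB cells, so NB was low. Rps3, at the mRNA entry site, was listed in 32 of 40 OligNBL, 10 of 27 NBL, 2 of 22 OL, 4 of 29 O and 16 of 37 NB cells. Rpsa, also known as the laminin receptor, was listed in 19 of 40 OligNBL, 4 of 27 NBL, 2 of 22 OL, 0 of 29 O and 2 of 37 NB cells. Rps4x, on the X chromosome, was listed in 17 of 40 OligNBL, 10 of 27 NBL, 2 of 22 OL, 2 of 29 O and 15 of 37 NB cells.

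The remaining small subunit genes did not share one order of populations either. Rps15a was above 0 in 28 of 40 OligNBL, 17 of 27 NBL, 1 of 22 OL, 3 of 29 O and 24 of 37 NB cells, so it was low in OL and O. Rps16 was listed in 27 of 40 OligNBL, 13 of 27 NBL, 5 of 22 OL, 3 of 29 O and 15 of 37 NB cells, so it was low in O. Rps29, a small zinc-binding protein, was above 0 in 21 of 40 OligNBL, 2 of 27 NBL, 11 of 22 OL, 0 of 29 O and 2 of 37 NB cells, so OligNBL and OL listed it most. Rps18 had values above 0 in 26 of 40 OligNBL, 9 of 27 NBL, 4 of 22 OL, 12 of 29 O and 12 of 37 NB cells. It was most frequent in OligNBL. Rps7 was seen above 0 in 16 of 40 OligNBL, 10 of 27 NBL, 1 of 22 OL, 4 of 29 O and 0 of 37 NB cells. Rps13 was above 0 in 11 of 40 OligNBL, 7 of 27 NBL, 7 of 22 OL, 4 of 29 O and 3 of 37 NB cells. Rps12 was listed in 5 of 40 OligNBL, 3 of 27 NBL, 0 of 22 OL, 2 of 29 O and 16 of 37 NB cells. Rps12 was thus listed mostly in NB, and Rps7 in OligNBL and NBL.

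On the large subunit, Rpl12 forms the base of the stalk that calls in translation factors. It was listed in 34 of 40 OligNBL cells (85%, interval 70.2 to 94.3%), against 5 of 27 NBL, 4 of 22 OL, 2 of 29 O and 3 of 37 NB cells. The median OligNBL cell was at 4.48 and the highest at 18.1. In the other populations the median was 0 and the highest cell reached 5.03 in NBL, 2.05 in OL, 2.45 in O and 5.07 in NB. The highest NBL and NB cells thus lay above the median OligNBL cell.

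Of the stalk proteins, Rplp1 had its highest mean level in OligNBL, as Rpl12 did, and Rplp0 in OL. Rplp1, an acidic protein of the stalk, was listed in 26 of 40 OligNBL, 0 of 27 NBL, 7 of 22 OL, 2 of 29 O and 1 of 37 NB cells. Rplp0, which anchors the acidic proteins, was listed in 20 of 40 OligNBL, 6 of 27 NBL, 18 of 22 OL (81.8%, interval 59.7 to 94.8%), 10 of 29 O and 6 of 37 NB cells. Its median level was 0.21 in OligNBL, 0 in NBL, 4.90 in OL, 0 in O and 0 in NB, so OL stood highest.

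Rpl3, close to the peptidyl transferase centre, was listed in 33 of 40 OligNBL, 16 of 27 NBL, 1 of 22 OL, 5 of 29 O and 13 of 37 NB cells. The median level of Rpl3 was 4.57 in OligNBL and 1.69 in NBL, against 0 in OL, O and NB, and its highest cell was at 18.5 in OligNBL, 8.31 in NBL, 6.05 in OL, 2.82 in O and 11.9 in NB. The table also lists a processed copy, Rpl3-ps1, with mean levels of 5.63 in OligNBL, 1.17 in NBL and 0 in OL, so how much of either value belongs to Rpl3 is uncertain.

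Rpl13a, which in human cells also acts outside the ribosome to silence inflammatory messages, was listed in 28 of 40 OligNBL, 6 of 27 NBL, 0 of 22 OL, 4 of 29 O and 5 of 37 NB cells. Its highest cells were at 18.1 in OligNBL, 3.66 in NBL, 0 in OL, 2.10 in O and 6.14 in NB. Rpl35, at the mouth of the exit tunnel, was the member listed in most cells of the series, 34 of 40 OligNBL, 23 of 27 NBL, 7 of 22 OL, 7 of 29 O and 26 of 37 NB cells. The median cell was at 2.73 in OligNBL, 3.95 in NBL, 0 in OL and O, and 2.95 in NB, so the 3 populations with the GFP reporter stood above the other 2.

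Rpl18 was listed in 4 of 40 OligNBL, 1 of 27 NBL, 17 of 22 OL (77.3%, interval 54.6 to 92.2%), 6 of 29 O and 1 of 37 NB cells. Levels in the median cell were 3.83 in OL and 0 in each other population, with highest cells at 3.28 in OligNBL, 5.38 in NBL, 12.9 in OL, 4.94 in O and 0.26 in NB. Rpl30, which in yeast controls its own splicing, was listed in 1 of 40 OligNBL, 4 of 27 NBL, 10 of 22 OL, 17 of 29 O and 1 of 37 NB cells. Rpl37a was listed in 4 of 40 OligNBL, 2 of 27 NBL, 11 of 22 OL, 16 of 29 O and 4 of 37 NB cells, with median levels of 0.96 in OL and 4.62 in O and of 0 in each other population. These 3 genes were low in the populations carrying the GFP reporter.

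Rpl11, which can bind and block Mdm2 and so stabilise p53, was listed in 17 of 40 OligNBL, 1 of 27 NBL, 2 of 22 OL, 2 of 29 O and 20 of 37 NB cells. Rpl22 was listed in 28 of 40 OligNBL, 8 of 27 NBL, 1 of 22 OL, 11 of 29 O and 1 of 37 NB cells. Rpl41, the shortest of the ribosomal proteins, was listed in 21 of 40 OligNBL, 10 of 27 NBL, 6 of 22 OL, 2 of 29 O and 16 of 37 NB cells. Rpl39, in the wall of the exit tunnel, was listed least, in 15 of 40 OligNBL, 1 of 27 NBL, 0 of 22 OL, 2 of 29 O and 0 of 37 NB cells.

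Most other large subunit genes were listed most often in OligNBL. Rpl27a was above 0 in 31 of 40 OligNBL, 12 of 27 NBL, 0 of 22 OL, 5 of 29 O and 2 of 37 NB cells. Rpl26 was listed in 30 of 40 OligNBL, 6 of 27 NBL, 9 of 22 OL, 5 of 29 O and 2 of 37 NB cells. Both were low in NB. Rpl4 was above 0 in 27 of 40 OligNBL, 8 of 27 NBL, 3 of 22 OL, 8 of 29 O and 15 of 37 NB cells. Rpl7 was listed in 24 of 40 OligNBL, 17 of 27 NBL, 4 of 22 OL, 9 of 29 O and 11 of 37 NB cells. Rpl7 was thus about as frequent in NBL as in OligNBL. Rpl35a had values above 0 in 28 of 40 OligNBL, 3 of 27 NBL, 6 of 22 OL, 1 of 29 O and 0 of 37 NB cells. Rpl7a was listed in 19 of 40 OligNBL, 2 of 27 NBL, 3 of 22 OL, 0 of 29 O and 0 of 37 NB cells. Rpl21 was above 0 in 22 of 40 OligNBL, 2 of 27 NBL, 11 of 22 OL, 4 of 29 O and 1 of 37 NB cells, so it was also frequent in OL. A smaller group was listed most often in NB. Rpl29 was above 0 in 4 of 40 OligNBL, 6 of 27 NBL, 0 of 22 OL, 3 of 29 O and 20 of 37 NB cells. Rpl27 was above 0 in 1 of 40 OligNBL, 8 of 27 NBL, 1 of 22 OL, 3 of 29 O and 14 of 37 NB cells. Rpl6 was listed in 5 of 40 OligNBL, 1 of 27 NBL, 5 of 22 OL, 2 of 29 O and 17 of 37 NB cells. Rpl17 was listed in 10 of 40 OligNBL, 1 of 27 NBL, 2 of 22 OL, 0 of 29 O and 13 of 37 NB cells, and these 4 genes were less frequent in OL and O than in NB. Rpl9 was listed in 17 of 40 OligNBL, 8 of 27 NBL, 1 of 22 OL, 4 of 29 O and 14 of 37 NB cells, about as often in OligNBL as in NB. Rpl8, near the peptidyl transferase centre, was above 0 in 12 of 40 OligNBL, 13 of 27 NBL, 3 of 22 OL, 13 of 29 O and 3 of 37 NB cells, with its highest cell in O (15.6).

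**Figure D3:**
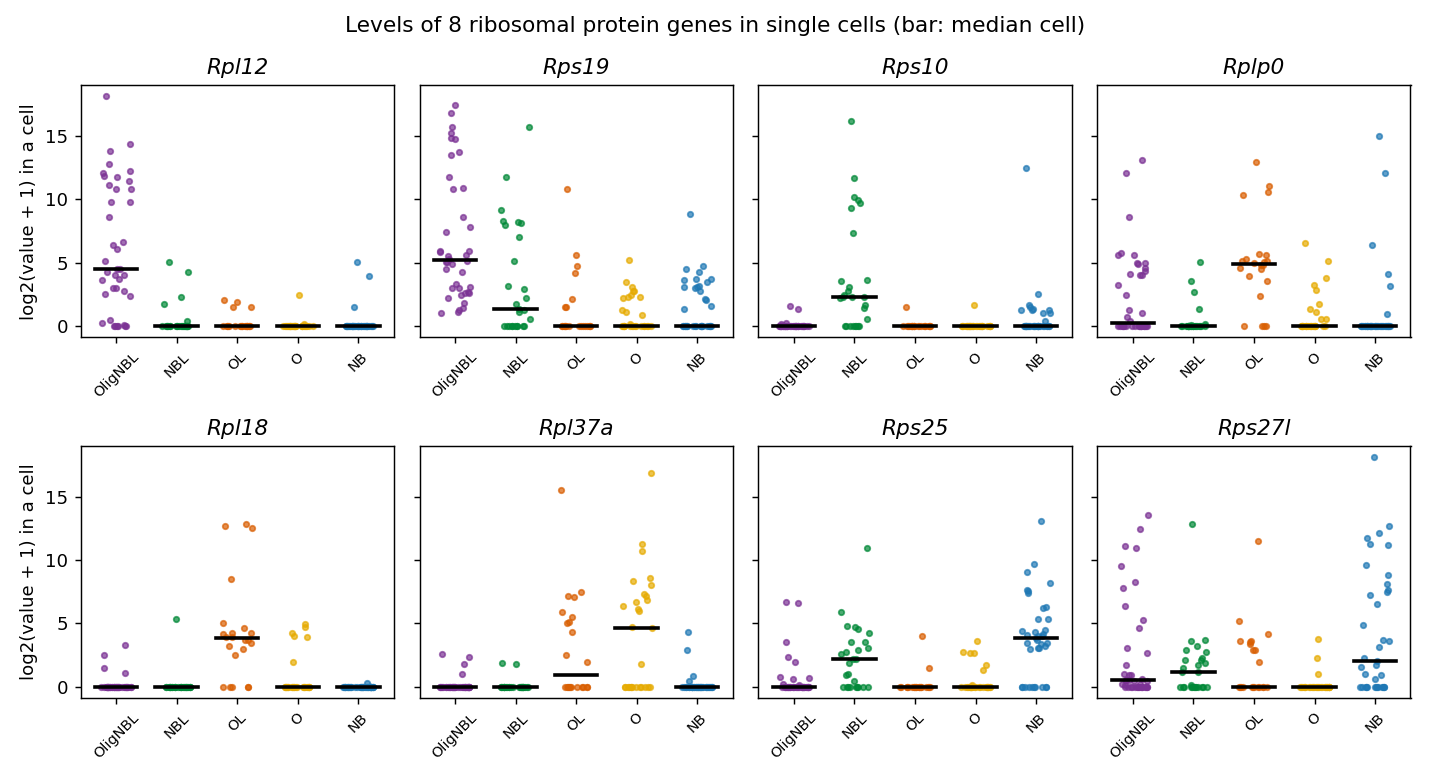
Each point is the level, log2(value + 1), of a gene in a cell, by population, and the bar is the median cell. Rpl12 and Rps19 are highest in OligNBL, Rps10 in NBL, Rplp0 and Rpl18 in OL, Rpl37a in O and Rps25 and Rps27l in NB, each with many cells at 0.

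Within populations, cells fell into sets with like profiles, mostly of neighbouring cell numbers, found without the 48 members by joining cells at a mean correlation of 0.4. OligNBL held 5 sets of at least 3 cells, NBL 4, OL 4, O 3 and NB 5. What a set shares besides neighbouring numbers is not given in the labels. Members were often all or nothing between sets, so each comparison below also counts the members whose set means do not overlap between the populations. The other genes of the table made the sets, so their share is given as background only.

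OligNBL against NBL, both from lesioned mice, sets the cells with both reporters beside those with the GFP reporter alone. Of the 48 members, 26 were higher in OligNBL by at least 1 (25.7% of all genes) and 3 were lower by at least 1 (20.3%). The median difference was 1.02 over the members and 0.03 over all genes. Large subunit genes, which are 27 of the 48 members (56.3%), made up 16 of the 26 higher members and 0 of the 3 lower ones. The largest differences were in Rpl12 (5.66), Rps24 (5.16), Rpl13a (4.29), Rpl3 (3.98), Rplp1 (3.68) and Rpl21 (3.58). Rps10 (-3.71) and Rps25 (-1.71) were among the lower members.

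Set means did not overlap for 4 higher members (6.78% of all genes), among them Rps24, Rps29 and Rpl35a, and for 1 lower member (3.57%), Rps10. Rps24 set means ran between 1.55 and 13.7 in OligNBL, against 0 and 0.90 in NBL. Those of Rps10 ran between 0 and 0.40 in OligNBL, against 1.94 and 12.01 in NBL. Among cells with at least 1000 genes above 0, 26 members were higher (25.9% of all genes) and 3 lower (20.5%). With a pseudocount of 10 in place of 1, which weighs low values less, 11 were higher (12.8% of all genes) and 2 lower (11.02%). Leaving out any set left between 22 and 26 higher members and 3 lower ones.

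OligNBL against OL sets the cells with both reporters beside those with the Tomato reporter alone, and it shares its OligNBL cells with the comparison above. Of the members, 21 were higher in OligNBL by at least 1 (27.3% of all genes) and 8 were lower (21.1%), with a median difference of 0.96 over the members and 0.13 over all genes. Large subunit genes made up 12 of the 21 higher and 5 of the 8 lower members. The highest were Rpl3 (5.89), Rpl12 (5.85), Rps19 (5.47), Rpl13a (4.68), Rpl35 (3.67) and Rpl27a (3.12). Rpl13a and Rpl27a were listed at 0 in all OL cells, so no fold is given for them. The lowest were Rpl30 (-4.19), Rpl18 (-4.17), Rpl37a (-2.88), Rplp0 (-2.63), Rps27a (-1.93) and Rps6 (-1.34).

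Set means did not overlap for 4 higher members (9.44% of all genes), Rpl12, Rpl13a, Rps15a and Rps7, and for 0 lower members (4.03%). Rpl12 set means ran between 1.35 and 10.7 in OligNBL, against 0 and 0.49 in OL. Among cells with at least 1000 genes above 0, 29 members were higher (28.4% of all genes) and 6 lower (22.1%), with 38 OligNBL and 9 OL cells. There the difference of Rps6 was 0.04, and without the third OL set it was 0.13, so the direction of Rps6 rests on few cells. Without the fourth OligNBL set the median difference of the members was 0.56. With a pseudocount of 10, 11 members were higher (13.5% of all genes) and 5 lower (14.0%).

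**Figure D4:**
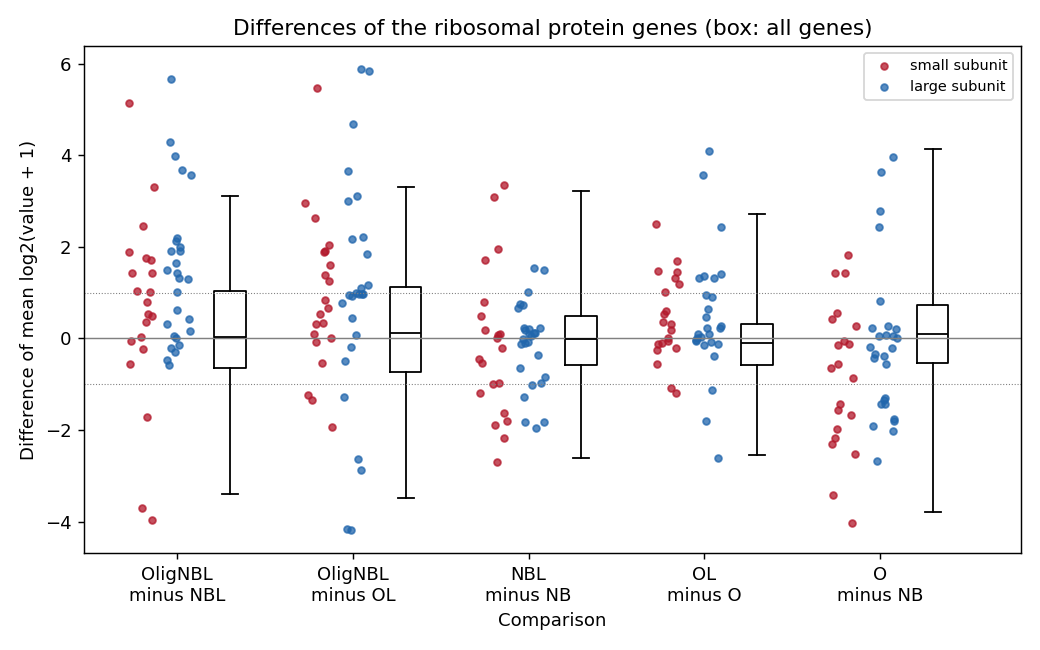
Points are the differences of mean log2(value + 1) of the small subunit (red) and large subunit (blue) genes in each comparison; boxes give the quartiles of all 3422 genes with whiskers at the 5th and 95th percentiles, and dotted lines mark differences of 1. Members lie mostly above 0 for OligNBL against NBL (median 1.02) and spread to both sides for NBL against NB (median -0.0049).

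NBL against NB sets Gad67-GFP+ cells of lesioned mice beside those of uninjected mice of the same strain. There were 7 members higher in NBL by at least 1 (17.4% of all genes) and 12 lower (17.3%), with a median difference of -0.0049 over the members and -0.0036 over all genes. Rps10 (3.10), Rps19 (1.95), Rps14 (1.72), Rpl35 (1.54) and Rpl22 (1.50) were among the highest. Rps27l (-2.69), Rps27a (-2.18), Rpl11 (-1.95), Rps6 (-1.89), Rpl6 (-1.83) and Rpl29 (-1.82) were lowest. Set means did not overlap for 0 higher members (1.99% of all genes) and for 1 lower member (1.26%), Rpl11, which was listed in 1 of 27 NBL cells and 20 of 37 NB cells. Its set means ran up to 0.01 in NBL, against 0.65 to 3.69 in NB.

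Some of these rest on 1 set. Without the first NBL set the difference of Rps19 was -0.21, and without the second NBL set that of Rpl35 was -0.69. Rps14 was listed in 16 of 27 NBL cells and 2 of 37 NB cells, but 1 NB cell was at 12.7, and the log2 ratio of mean values was -4.21. Among cells with at least 1000 genes above 0 (22 in NBL and 21 in NB), 6 members (12.5%) were higher, against 18.7% of all genes, and 16 members (33.3%) were lower, against 21.5%. With a pseudocount of 10, 4 members were higher (9.88% of all genes) and 2 lower (10.5%).

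OL against O sets Olig2-Tomato+ cells of lesioned mice beside those of uninjected mice of the same strain. In OL 14 members were higher by at least 1 (15.9% of all genes) and 5 were lower (15.7%), with a median difference of 0.23 over the members and -0.10 over all genes. Rplp0 (4.10), Rpl18 (3.56), Rps29 (2.51), Rpl21 (2.43), Rps27l (1.69) and Rps27a (1.49) were highest. All 5 lower members were Rpl22 (-2.61), Rpl8 (-1.81), Rps18 (-1.20), Rpl37a (-1.12) and Rps24 (-1.08). Set means did not overlap for 0 higher members (1.72% of all genes) and for 3 lower ones (8.83%), Rpl22, Rps18 and Rpl13a. Rpl13a differed by less than 1, was listed at 0 in all OL cells and had set means of 0.05 to 0.23 in O.

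Counts in OL against O moved with the cells used. Without the second OL set, 9 members were higher and the median difference was 0.09. There were 3 lower members without the first OL set and without the second O set, and 2 without the third O set. In the 9 OL and 21 O cells with at least 1000 genes above 0, 8 members (16.7%) were higher, against 16.4% of all genes. There 3 members (6.25%) were lower, against 17.2%, and the median difference was -0.0017 over the members and -0.11 over all genes. With a pseudocount of 10, 4 members (8.33%) were higher, against 10.5% of all genes, and 1 member (2.08%) was lower. At both settings the share of higher members was close to or below that of all genes. Rpl37a had the opposite sign without the first OL set (0.19) and without the third O set (1.05), Rps27a without the fourth OL set (-0.30), and Rps24 without the second O set (0.06).

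O against NB compares the Olig2-Tomato+ and Gad67-GFP+ gates in uninjected mice. In O 7 members were higher by at least 1 (19.4% of all genes) and 18 were lower (20.7%), with a median difference of -0.37 over the members and 0.09 over all genes. Rpl37a (3.96), Rpl30 (3.63), Rpl22 (2.78), Rpl8 (2.43), Rps24 (1.82) and Rps14 (1.44) were highest. Rps27l (-4.03), Rps25 (-3.42), Rpl35 (-2.67), Rps15a (-2.53) and Rps27a (-2.30) were among the lowest. Set means did not overlap for 5 higher members (15.3% of all genes), among them Rpl22, Rpl37a, Rpl30 and Rpl18, and for 5 lower members (6.43%), Rps25, Rps27l, Rpl11, Rpl17 and Rpl35. Rps25 set means ran between 0.01 and 1.03 in O, against 2.54 and 5.84 in NB. Without the third O set, 4 members were higher, and without the fifth NB set the median difference was -0.13. Among cells with at least 1000 genes above 0, 6 were higher (19.8% of all genes) and 20 lower (21.7%), and with a pseudocount of 10, 6 were higher (12.7%) and 4 lower (14.1%).

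Sets within a population differed in which members they listed high. In OligNBL, 15 members had their highest set mean in the fourth set (11 cells), 12 in the first (10 cells), 10 in the second (8 cells), 7 in the third (5 cells) and 4 in the fifth (4 cells). In all 11 cells of the fourth set Rps24, Rpl3, Rpl13a, Rpl12, Rpl21 and Rplp1 were above 0, with set means of 13.7, 12.4, 11.6, 10.7, 9.91 and 9.06. The third set instead led for Rps19 (15.1), Rpl35 (14.3) and Rps27l (9.63), and the second for Rpl27a (6.58) and Rps14 (5.02). In NBL, the first set led for Rps19 (9.71), and the third for Rps10 (12.01) and Rpl22 (9.22). In O, the second set led for Rps6 (11.9), and the third for Rpl37a (9.03), Rpl30 (8.50) and Rpl22 (7.47). In OL, the fourth set led for Rpl30 (10.5) and Rpl37a (7.36), and the 3 cells of the third set for Rps6 (13.1). In NB, the second set led for Rps27l (10.1), which was above 0 in all 11 of its cells.

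**Figure D5:**
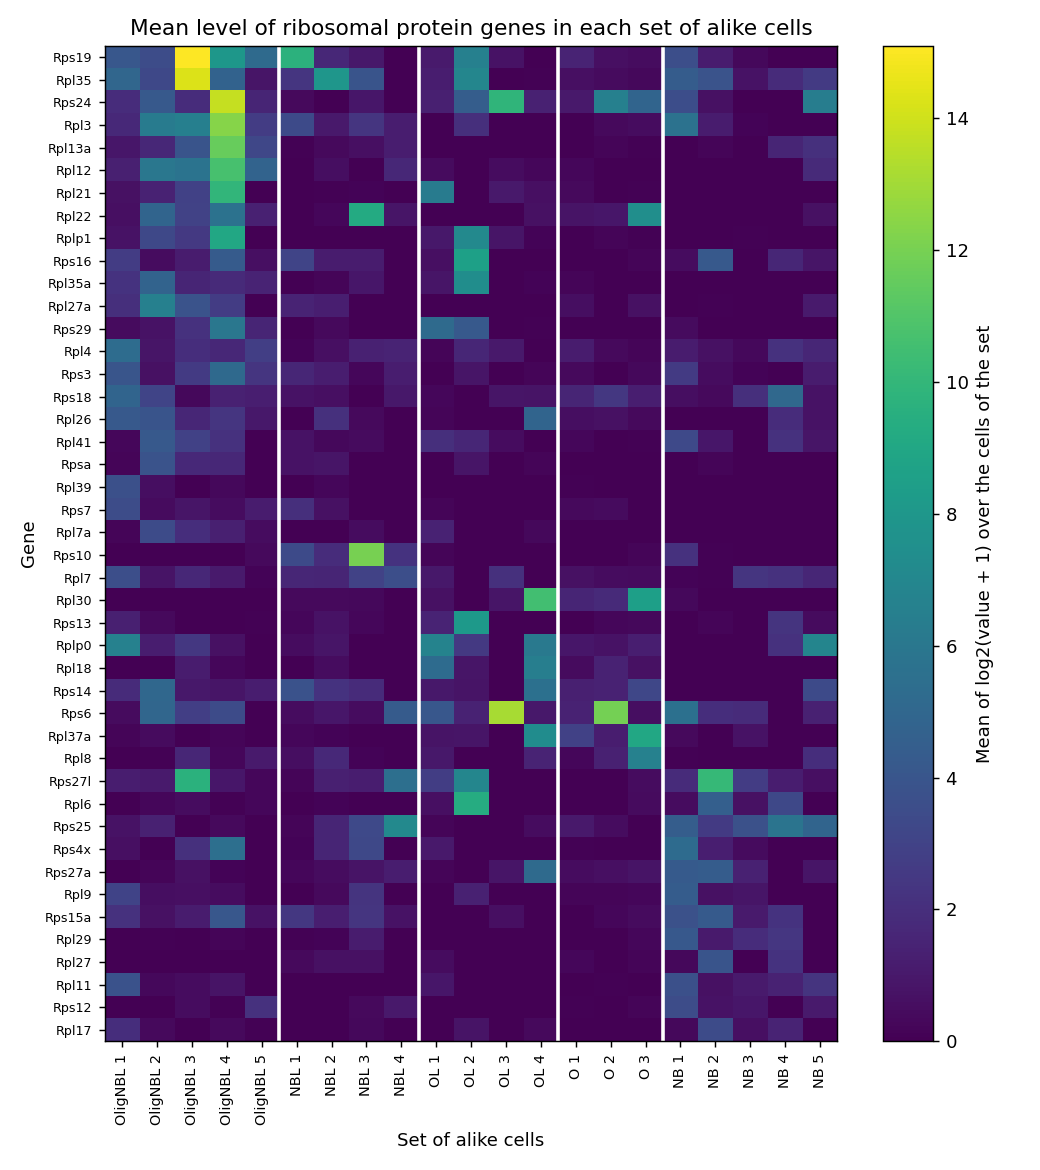
Colour gives the mean of log2(value + 1) of the ribosomal protein genes reported by name (rows) over the cells of each set of alike cells (columns), with white lines between populations. High values stand in single sets, such as Rps24 at 13.7 in the fourth OligNBL set and Rps6 at 13.1 in the third OL set, and few genes are high in all sets of a population.

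Members varied little with each other from cell to cell. The mean correlation over pairs of members was 0.02 in OligNBL, NBL, OL and O and 0.05 in NB, against 0.00 to 0.01 over pairs of all genes. With each population's mean removed, 21 of 1128 pairs had an r of at least 0.5 over all cells and 918 pairs were under 0.2 in size. The shares over pairs of all genes at these limits were not computed, so whether the members differ from other genes here is unknown. The pairs with the highest r were Rpl21 with Rpl13a (0.80), Rplp1 with Rpl13a (0.80), Rpl37a with Rpl30 (0.78) and Rplp1 with Rpl21 (0.75). Rpl12 with Rpl39 had the lowest (-0.41). Cells of a set share what makes them alike, and the pairs of Rpl13a, Rpl21 and Rplp1 join genes led by the fourth OligNBL set. The populations accounted for a median of 17.3% of a member's sum of squares (6.90 to 48.2%), against 17.2% for all genes. With sets added the median was 54.7% over the members and 52.98% over all genes. Rpl12 had the largest part between populations (48.2%), followed by Rpl18 (41.8%) and Rpl13a (32.5%).

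Other genes of protein synthesis differed in both directions. Their counts stand beside shares over all genes of 25.7% higher and 20.3% lower for OligNBL against NBL, and 27.3% higher and 21.1% lower for OligNBL against OL, and with few genes in a list they show no direction of the list. Ribosome biogenesis factors, of which 17 of 77 listed were measured, had a median difference of 0.62 for OligNBL against NBL, with 6 higher by at least 1 and 2 lower. Rrp7a, a ribosomal RNA processing factor, differed by 6.13, the nucleolar histone chaperone Npm1 by 3.92, Nop58 of the methylation-guiding box C/D particles by 3.51 and Mybbp1a by -3.00. Against OL, 6 of the 17 were higher in OligNBL and 4 lower, with Rrp7a at 5.80 and Rrp1 at 4.75 highest and Imp4 at -3.49 lowest. Of elongation and release factors only 4 of 11 were measured, and for OligNBL against NBL 1 was higher and 3 were lower by at least 1. Eef1b2, a nucleotide exchange factor of elongation, differed by -3.39, and Eef1a1, which brings aminoacyl-tRNA to the ribosome, by -1.13.

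Initiation factors (24 of 48 measured) were split for OligNBL against NBL, with 7 higher and 9 lower, and against OL, with 9 higher and 3 lower. Eif1, which guards start codon choice, had mean levels of 8.13 in OligNBL, 13.8 in NBL, 4.41 in OL, 7.54 in O and 11.4 in NB. Eif5a, which helps the ribosome past proline stretches, differed by 7.11 for NBL against NB, and Eif4g2 by -6.08. Mitochondrial ribosomal proteins, of which 25 were measured, had a median difference of 0.05 for OligNBL against NBL, with 8 higher by at least 1 and 4 lower, Mrpl11 (-6.69) and Mrpl14 (3.50) being the farthest. Of growth control genes, 9 of 31 were measured, and 3 were higher and 3 lower for OligNBL against NBL. Among these, Mtor, the kinase at the centre of this pathway, had mean levels of 0.15 in OligNBL and 7.75 in NBL, and of 0.10 in NB. Tsc2, its inhibitor, had mean levels of 3.97 in OligNBL, against 0.15 in NBL and 0 in OL. Lamtor5 (2.74 against 0) and Rps6kb1 (1.27 against 0) were also higher in OligNBL than in NBL. Akt2 (1.96 against 4.13) and Lamtor3 (0.33 against 2.06) were also lower. Ribosomal protein genes that the symbol rule leaves out (8 of 25 measured) had a median difference of 0.51 for OligNBL against NBL and of 0.0016 against OL. Fau, which encodes the small subunit's Rps30, was lower in NBL than in NB (-2.51) and higher in OL than in O (2.23).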

How the data were processed

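The authors deposited a table of 3422 genes whose name calls the values estimated counts. The deposited values are a normalized signal, since their distribution was nearly equal in all cells, and count tests and depth could not be used. Per the submitters' processing notes, kallisto, limma and GRCm38 were used; no source used here gives versions or how the genes were selected. Groups are the population names of the labels.

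From these values, levels were computed as log2(value + 1). A gene counted as above 0 where its value exceeded the cell's lowest value, which differs from a value above 0 in 1 NB cell whose lowest value was 0.00585. Sets were made by average linkage at a mean correlation of 0.4 without the 48 members; those spanning populations (4 of 20) were divided by population. Shares have exact Clopper-Pearson 95% intervals, and limits for members at 0 in all cells are 3 divided by the number of cells. Members named were the 6 largest differences each way of at least 1, the 10 most widely listed members and a fixed set; pathway genes named were up to 4 per list with differences of at least 1. Members and lists were chosen with earlier results of these data known. The other members are given by cell counts and in the figures. Some members count in every total but are not reported by name here. Alternatives covered the pseudocount, low values, cells used, weighting and set joining; alternatives on a value above 0 and on cells with 1000 to 1400 genes were chosen after seeing the data. The difference of mean levels was tested on levels shuffled over cells with an added shift, which removes the sets of alike cells. The rule for set means that do not overlap was tested on a small made-up case, and the other steps were not tested this way. Member coordinates are from RefSeq GRCm38.p6. Tools were scipy 1.17.1, matplotlib 3.10.9, pandas 2.3.3 and numpy 2.4.6 in Python 3.11.15. All cells were kept, except that 2 NB cells with fewer than 500 genes above 0 have no count among the 500 highest genes. No doublet caller was run.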

Additional observations from a re-analysis of the deposited data

How the results depend on the processing

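With a pseudocount of 10, counts of members past 1 shrank in every comparison: OligNBL against NBL to 11 higher, OligNBL against OL to 11 higher and 5 lower, NBL against NB to 4 higher and 2 lower, OL against O to 4 higher and 1 lower, and O against NB to 4 lower. The larger pseudocount shrinks differences of low values by construction. As the log2 ratio of mean values, which single high cells dominate, OligNBL against NBL had a median over members of 3.99 with 6 lower, and OligNBL against OL one of 3.09. NBL against NB had -1.28 with 25 lower, OL against O 1.02 with 24 higher, and O against NB -1.81 with 29 lower. Rps14 in NBL against NB reversed to -4.21. Shares over all genes were not computed for these counts or for counts with a set left out. Members with a scaled mean of at least 5 numbered 37, 42, 27, 26 and 28 in the 5 comparisons, and their medians were -0.65 (NBL against NB), 1.10 (OL against O) and -1.38 (O against NB). These are the members that passed, not all 48. Among cells with at least 1000 genes above 0, OL against O had 8 higher and 3 lower, and Rps6 in OligNBL against OL reversed to 0.040. With sets weighted equally, Rps24 in OL against O reversed to 0.13. Members among the 500 highest genes numbered 10, 4, 7, 3 and 7 in OligNBL, NBL, OL, O and NB, and members above 0 numbered 19 in NB cells with 1000 to 1400 genes. With sets joined at 0.5, set means were apart for 7 higher members in OligNBL against NBL (14.6%, against 10.3% of all genes), 2 higher (4.17%, against 3.10%) and 4 lower (8.33%, against 6.14%) in NBL against NB, and 10 higher (20.8%, against 20.8%) and 13 lower (27.1%, against 14.5%) in O against NB. Joined at 0.35, they were apart for 7 higher in OligNBL against NBL (14.6%, against 9.73%) and 1 higher in NBL against NB (2.08%, against 3.42%). Leaving out each set in turn gave 9 to 17 higher and 2 to 6 lower for OL against O and 4 to 7 higher for O against NB. It gave differences of -2.97 to 0.13 for Rps6 (OligNBL against OL), -0.21 to 3.22 for Rps19 and -0.69 to 2.36 for Rpl35 (NBL against NB), and -2.66 to 0.059 for Rps24, -3.57 to 1.05 for Rpl37a and -0.30 to 2.56 for Rps27a (OL against O). The cause was not tested. Of 806 alternatives over 56 differences of 29 named genes, 754 kept direction and moved by less than the spread between cells, 42 moved by more and 10 reversed. Of the 754, 56 were the same by construction, since the filter on scaled means changes no gene's own value. The spread between single cells is wide, so this tally is no measure of robustness. No paired analysis was possible because no cell is tied to a mouse and no result comes from a test. Depth is unknown, and a 0 does not show absence.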
